A study of Mus musculus with 12 samples.

Results

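Fat cell marker genes, which white adipocytes transcribe at high levels, were followed across the muscle RNA pools of a study of a drug and treadmill training. The set held 8 genes: Adipoq, Retn, Cfd, Plin1, Car3, Pparg, Cebpa and Lep. A probe set belonged to it when the array annotation gave 1 of these symbols as its gene. This found 7 probe sets of 6 genes among 22690 probe sets, with 2 for Car3, and 0 further probe sets named a member beside another gene. Cfd and Plin1 had no probe set under their symbols and were not analysed here. Pparg and Lep lay below the filter on low signals, which left 5 probe sets of 4 genes among the 13575 probe sets that were tested.

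White adipocytes form when the transcription factors PPARγ, encoded by Pparg, and C/EBPα, encoded by Cebpa, switch each other on and then drive the genes of lipid storage and hormone secretion. The mature cell secretes adiponectin (Adipoq), resistin (Retn), leptin (Lep) and the complement protease adipsin (Cfd), and coats its lipid droplet with perilipin 1 (Plin1). Carbonic anhydrase 3 (Car3) is abundant in fat but also in muscle fibres, above all slow ones, so it marks fat less cleanly than the others. Dissected muscle carries fat between its fibres and along its fascia, and RNA from it enters a whole-muscle extract.

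The arrays were hybridized with quadriceps RNA of C57Bl/6J mice in 4 groups of 3 arrays. Mice of the vehicle group were sedentary, and mice of the GW group were sedentary and were dosed with 5 mg/kg per day of GW1516, which activates the nuclear receptor PPARδ. The exercise group trained on a treadmill, and the combination group trained and received the same drug at the same dose, in every case for 4 weeks. Each array held RNA pooled from 3 mice of its group, so a group stands for 9 mice, a p-value measures the spread between pools, and a high pool cannot be assigned to 1 mouse or to several. Ages and sexes were not given in the sources used here. Median signals per array ran from 48.4 to 57.2, and the 3′/5′ signal ratio of the actin control, a measure of RNA quality, from 0.763 to 1.10. The 3 combination arrays had actin ratios of 0.826, 0.803 and 0.841. Signals are linear intensities, and 23.5, the 95th percentile of 27 bacterial control probe sets, is taken as the background level. In whole-muscle RNA, fewer fat cells and less marker RNA per fat cell cannot be told apart. Fast fibre genes of muscle were high in every pool, with summed signals of 13 genes between 200043 and 250420.1.

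The first 250 bases before the transcription start are shown for Adipoq, Retn and Cebpa, the members whose signals varied most closely together, so that the promoters behind the measured transcripts can be read side by side. They are RefSeq sequences of build GRCm38.p6, written 5′ to 3′ on the coding strand, and 7 of the 8 genes had such an entry. A set of 4 short motifs was searched on both strands, and capitals mark their matches: CCAAT, TTGCNNAA, which holds the outer letters of a site that C/EBP factors bind, the nuclear receptor motif AGGTCA and the TATA box TATAAA.
Adipoq promoter, chr16:23146286-23146535, plus strand: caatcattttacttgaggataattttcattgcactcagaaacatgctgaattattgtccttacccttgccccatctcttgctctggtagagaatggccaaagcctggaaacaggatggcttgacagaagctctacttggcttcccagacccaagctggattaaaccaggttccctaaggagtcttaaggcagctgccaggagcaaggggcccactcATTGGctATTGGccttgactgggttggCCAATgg
Retn promoter, chr8:3655520-3655769, plus strand: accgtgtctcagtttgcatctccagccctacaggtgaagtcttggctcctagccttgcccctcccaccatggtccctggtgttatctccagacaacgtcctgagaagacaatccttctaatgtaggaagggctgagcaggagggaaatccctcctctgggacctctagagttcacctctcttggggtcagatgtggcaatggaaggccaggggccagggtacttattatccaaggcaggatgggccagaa
Cebpa promoter, chr7:35119043-35119292, plus strand: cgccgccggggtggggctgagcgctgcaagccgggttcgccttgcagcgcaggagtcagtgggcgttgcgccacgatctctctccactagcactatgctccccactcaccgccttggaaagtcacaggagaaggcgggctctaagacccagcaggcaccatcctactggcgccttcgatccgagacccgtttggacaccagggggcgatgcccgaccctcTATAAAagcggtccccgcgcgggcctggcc
In the Adipoq window the script found 3 CCAAT matches, at -34 and -27 on the minus strand and at -7 on the plus strand, counted from the transcription start. CCAAT occurs in 33.8% of 32851 RefSeq mouse promoter windows of this length. The Cebpa window held a TATAAA match at -30, as 12.4% of windows hold at any position. The Retn window held none of the 4 letter strings, which says only that these letters are not there. Among the members not printed, the Lep window held TTGCNNAA at -55, read alike on both strands, and the Plin1 window held it at -187 and -58. Pparg had 3 windows, which between them held each of the 4 strings. That string occurs in 9.56% of windows and AGGTCA in 14.0%. The matches are descriptions of the letters and were not set against any binding measurement.

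Adiponectin, a hormone released by fat cells that acts on liver and muscle, gave the clearest picture of how the pools differed. Adipoq (1422651_at, Entrez gene 11450) had signals of 331, 209.7 and 365 in the vehicle arrays and 248, 346 and 363 in the GW arrays. The exercise arrays gave 283, 338 and 334, and the combination arrays 269.6, 1049 and 1471. Combination arrays 2 and 3 stood above all 10 others, while combination array 1 lay inside the range of the other 3 groups. Group means were 302 ± 81.5 in vehicle, 319 ± 62.0 in GW, 319 ± 30.8 in exercise and 930.1 ± 609.7 in combination (SD, n = 3 arrays each). Combination arrays 2 and 3 were 3.89-fold and 5.46-fold above combination array 1.

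Resistin, another secreted product of mouse fat cells, followed the same order within the combination group. Retn (1449182_at, Entrez gene 57264) had signals of 209, 82.8 and 97.0 in vehicle and 166, 168 and 145 in GW. It had 128, 114 and 211 in exercise and 150.1, 521 and 929 in combination. Again combination array 1 lay among the other groups and combination arrays 2 and 3 above every other array, by 3.47-fold and 6.19-fold over combination array 1. The means were 129.6 ± 69.2 in vehicle, 159.5 ± 12.8 in GW, 151 ± 52.2 in exercise and 533 ± 389 in combination (SD, n = 3).

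Cebpa (1418982_at, Entrez gene 12606) encodes the transcription factor C/EBPα, which completes the differentiation of the fat cell. Its signals were 106, 74.2 and 134 in vehicle, 77.4, 107 and 135 in GW, 134, 87.0 and 113 in exercise, and 95.1, 244 and 342 in combination. The order of the combination arrays was the one seen for Adipoq and Retn, with ratios to combination array 1 of 2.56 for array 2 and 3.60 for array 3. Group means were 105 ± 29.9, 107 ± 29.0, 111 ± 23.7 and 227 ± 124 in the same order of groups (SD, n = 3).

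Car3 encodes the carbonic anhydrase shared by fat and muscle, and its signals were the highest of the set, with means at the 99.3th and 97.0th percentiles of all probe sets. In 1449434_at (Entrez gene 12350) they were 4606, 5563 and 4632 in vehicle, 3907, 6737 and 5472 in GW, 5855, 4199 and 4328 in exercise, and 5326, 8125 and 8639.9 in combination. In 1460256_at they were 1216, 2029 and 1777 in vehicle, 1199, 2775 and 1936 in GW, 2245, 1347 and 1293 in exercise, and 2436, 4395 and 4915 in combination. Combination arrays 2 and 3 were the highest of all 12 arrays in both probe sets, but by smaller ratios to combination array 1, 1.53 and 1.62 in the first probe set and 1.80 and 2.02 in the second. The 2 probe sets, which read the same gene, correlated across the 12 arrays with r = 0.97.

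The master regulator and the hormone leptin were near the background on most arrays. Pparg (1420715_a_at, Entrez gene 19016) had signals of 36.1, 39.5 and 19.6 in vehicle, 6.02, 8.60 and 5.20 in GW, 6.90, 37.7 and 7.10 in exercise, and 56.6, 38.2 and 149 in combination. It exceeded 23.5 on 6 of 12 arrays, among them all 3 combination arrays and none of the GW arrays. Lep (1422582_at, Entrez gene 16846) exceeded it on 2 of 12 arrays, GW array 1 at 25.1 and combination array 2 at 51.1. On combination array 3, which was highest for the other members, Lep had a signal of 6.30.

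**Figure D1:**
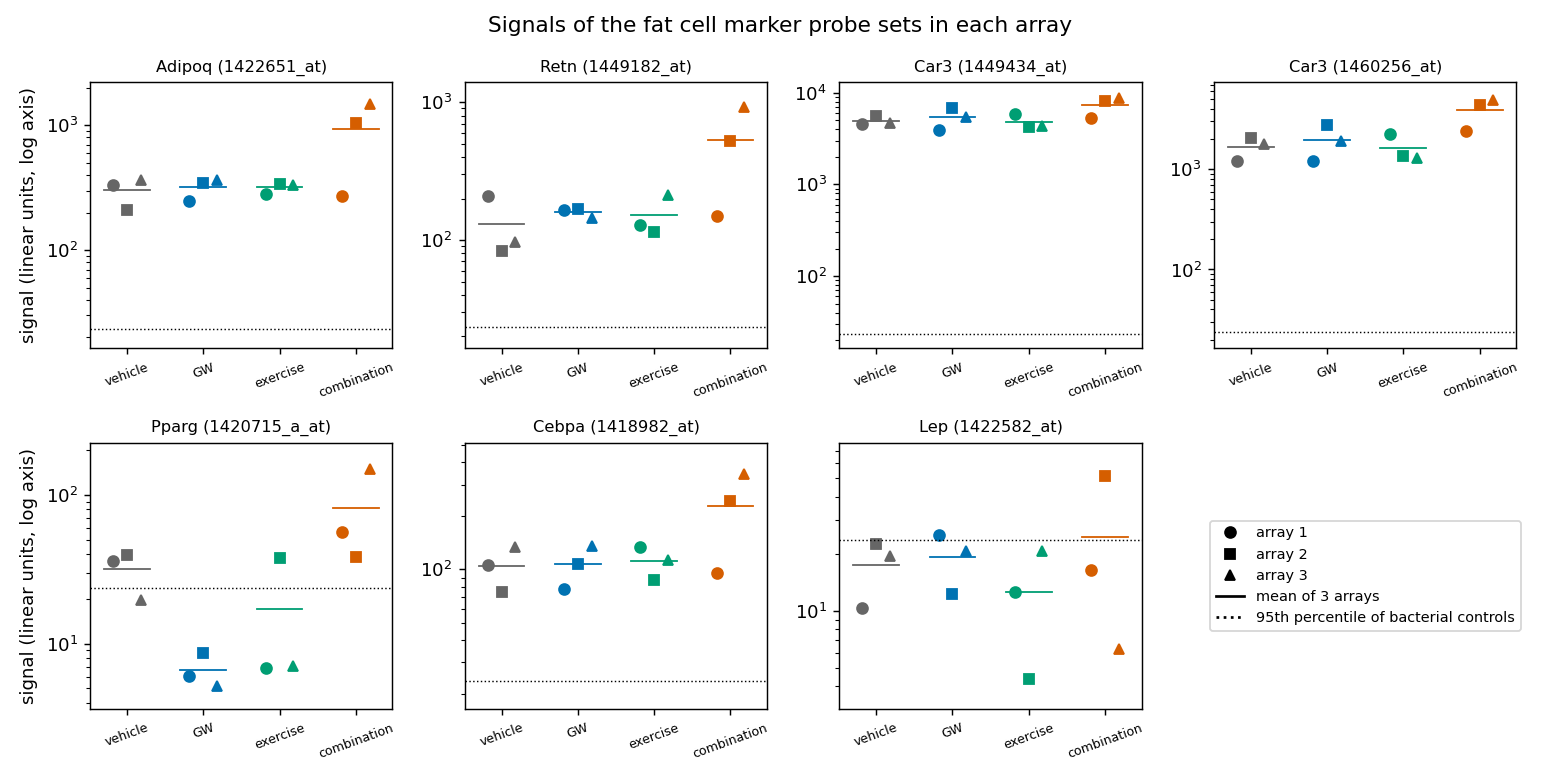
Signal of each of the 7 probe sets (log axis, linear signal units) in the 4 groups, with 1 point per array, the shape giving the array's number and the bar the mean of 3 arrays; the dotted line is the background level of 23.5. For Adipoq, Retn and Cebpa combination arrays 2 and 3 lie above all other arrays while combination array 1, at 269.6, 150.1 and 95.1, lies among them. Pparg and Lep sit around the background on most arrays, with Pparg at 149 on combination array 3.

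To give each pool 1 value, log2 signals of the 4 genes above background (Adipoq, Retn, Cebpa and the brighter Car3 probe set) were centred on their mean over the 12 arrays and averaged. This fat marker level was -0.12, -0.68 and -0.28 in vehicle, -0.48, -0.04 and -0.07 in GW, -0.18, -0.44 and -0.12 in exercise, and -0.30, 1.13 and 1.60 in combination. On a linear scale combination arrays 2 and 3 were at 2.18 and 3.04 times the geometric mean of the arrays. The other 10 arrays spanned 0.623 to 0.970 times that mean, vehicle array 2 being the lowest. With Car3 left out the levels of combination arrays 2 and 3 were 1.31 and 1.91, and that of combination array 1 was -0.39.

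**Figure D2:**
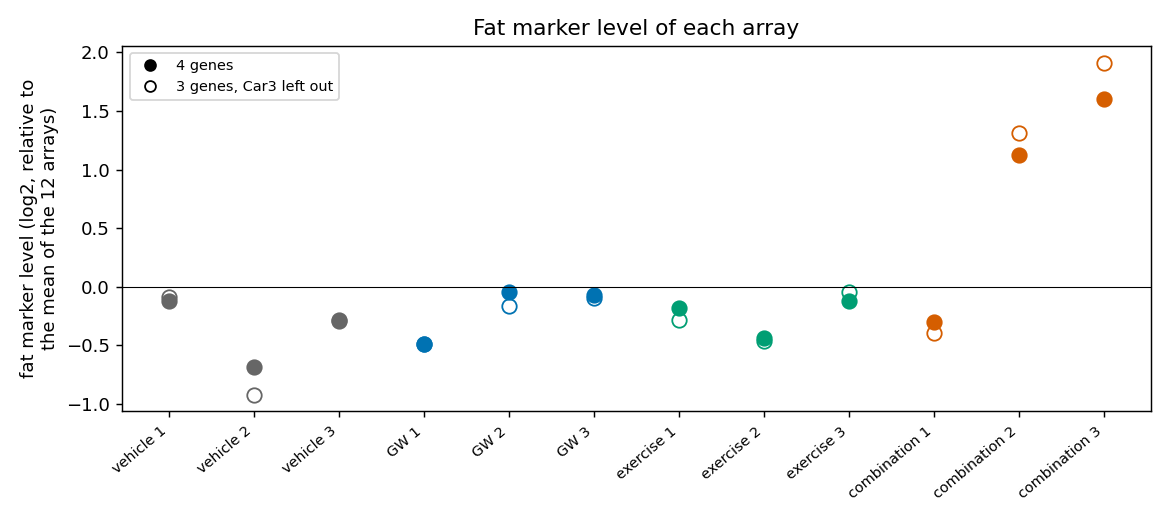
Fat marker level of each array (log2, relative to the mean of the 12 arrays), from 4 genes (filled) and from 3 genes without Car3 (open). Combination arrays 2 and 3 lie at 1.13 and 1.60, and the other 10 arrays lie between -0.68 and -0.04.

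The spread of the markers between pools of the same group was large for a muscle transcript. The pooled within-group SD on the log2 scale was 0.70 for Adipoq, 0.80 for Retn and 0.58 for Cebpa, at the 94.0th, 95.7th and 90.4th percentiles of the probe sets tested, whose median was 0.25. Car3 had 0.31 and 0.50, at the 63.5th and 85.8th percentiles. For Adipoq, Retn and Cebpa the combination group was the widest, with SDs of 1.30, 1.34 and 0.96 against 0.43, 0.72 and 0.43 among the vehicle arrays. For Car3 the GW group was the widest, with 0.40 and 0.61 in the 2 probe sets, against 0.38 and 0.54 in combination. In the exercise arrays Adipoq had an SD of 0.14, and in the GW arrays Retn had 0.12.

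The comparison of GW with vehicle asked whether the drug changed the markers in sedentary muscle. None of the 5 probe sets tested was called at an adjusted p under 0.05, 0 of 5 where 0.0958% of all probe sets were called, and 0 of 5 had an unadjusted p under 0.05, as 6.42% of all did (limma). The fold changes on the log2 scale were 0.10 ± 0.43 (SE) for Adipoq (limma adjusted p = 0.979), 0.42 ± 0.49 for Retn (0.915), 0.03 ± 0.38 for Cebpa (0.991), and 0.09 ± 0.20 and 0.18 ± 0.31 for the Car3 probe sets. The 95% interval for Adipoq ran from -0.82 to 1.02. Its spread was estimated over all 4 groups, and the SD of the combination arrays (1.30) exceeded those of vehicle (0.43) and GW (0.30). Arrays of the groups overlapped in all 5, 0 of 5 separating where 11% of all probe sets did. The median over the 5 was 0.10 beside 0.00 over all probe sets.

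Training alone was compared with vehicle in the same way. The 5 members had log2 fold changes of 0.11 ± 0.43 (SE) for Adipoq (limma adjusted p = 0.951), 0.29 ± 0.49 for Retn (0.878), 0.11 ± 0.38 for Cebpa (0.944), and -0.05 ± 0.20 and -0.06 ± 0.31 for Car3. None was called, 0 of 5 where 0.0147% of all probe sets were, 0 of 5 had an unadjusted p under 0.05 (10.4% of all), and 0 of 5 separated the groups (17.4% of all). The signs of the small Adipoq, Cebpa and Car3 values in these comparisons against vehicle turned when single arrays were left out. Without vehicle array 2, the array with the lowest marker level, Adipoq had -0.14 for GW and -0.13 for exercise.

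The combination group was then compared with vehicle. Adipoq was 2.54-fold higher (log2 1.35 ± 0.43, SE, limma adjusted p = 0.312, 95% interval 0.43 to 2.27). Retn was 3.51-fold higher (1.81 ± 0.49, adjusted p = 0.213) and Cebpa 1.96-fold (0.97 ± 0.38, adjusted p = 0.427). Car3 was 1.47-fold higher in 1449434_at (0.55 ± 0.20, adjusted p = 0.376) and 2.29-fold in 1460256_at (1.19 ± 0.31, adjusted p = 0.179). None of the 5 was called, 0 of 5 where 0.155% of all probe sets were, while 5 of 5 had an unadjusted p under 0.05, which 9.98% of all probe sets had. The arrays of the groups separated in 1 of 5, Car3 1460256_at, where 7.94% of all probe sets separated with combination higher. For the other 4 the low combination array 1 fell within the vehicle range. The median over the 5 was 1.19 beside 0.00 over all probe sets. The fit took 1 spread per probe set for all 4 groups. For Adipoq, Retn and Cebpa the combination SDs (1.30, 1.34 and 0.96) exceeded the pooled ones (0.70, 0.80 and 0.58). With all arrays, their SEs, intervals and unadjusted p-values thus understate the spread of the combination pools, here and in the other comparisons that include that group. In GW and in exercise against vehicle, the SEs and intervals of Adipoq and Cebpa instead overstate the spread of the pools compared. Their SDs in vehicle, GW and exercise were 0.43, 0.30 and 0.14 for Adipoq and 0.43, 0.41 and 0.32 for Cebpa.

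Setting combination against exercise shows the drug in trained muscle, and setting it against GW shows training under the drug. Both share the combination arrays with the comparison against vehicle, so the 3 sets of values are not separate evidence. Against exercise the log2 fold changes were 1.23 for Adipoq (limma adjusted p = 0.403), 1.52 for Retn (0.364), 0.86 for Cebpa (0.514) and 0.60 and 1.25 for Car3 (0.364 and 0.161). Against GW they were 1.25 for Adipoq (limma adjusted p = 0.728), 1.39 for Retn (0.728), 0.94 for Cebpa (0.834) and 0.46 and 1.01 for Car3 (0.853 and 0.716). Both comparisons called 0 of 5, where 0.162% and 0% of all probe sets were called. In both, 5 of 5 had an unadjusted p under 0.05, as did 9.18% of all probe sets against exercise and 5.75% against GW. Only Car3 1460256_at separated combination from exercise, 1 of 5 where 7.58% of all probe sets lay higher, and 0 of 5 separated it from GW, where 10.5% of all separated in either direction.

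The factorial terms gave no member call either. For the interaction, which takes the sedentary drug effect away from the trained one, Adipoq had a log2 value of 1.13 ± 0.61 (SE, limma adjusted p = 0.734) and Car3 1460256_at had 1.07 ± 0.44 (0.727). The interaction called 0 of 5 members and 0% of all probe sets, and 1 of 5 members had an unadjusted p under 0.05 where 6.79% of all had. Averaged over training, the drug effect called 0 of 5 (0.317% of all), with 4 of 5 under an unadjusted 0.05 (8.37% of all) and a median of 0.67. Averaged over drug, the training effect called 0 of 5 (0.0147% of all), with 3 of 5 under an unadjusted 0.05 (9.09% of all) and a median of 0.52.

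Among the fits with 1 array left out, only that without combination array 1 called any member. It was the lowest combination array in each of the 5 probe sets, so leaving it out raises the group mean of these same values. The calls below are therefore a description of the 2 high pools and no separate evidence. Car3 1449434_at was called in none of the comparisons. Without combination array 1 the group holds 2 arrays, and Adipoq was called higher than vehicle at a log2 fold change of 2.08 ± 0.23 (SE, limma adjusted p = 0.000461), Retn at 2.55 ± 0.36 (0.00323) and Cebpa at 1.51 ± 0.30 (0.0439). That made 3 of 5 members called where 0.383% of all probe sets were, and the Car3 values were 0.77 (0.119) and 1.51 (0.0503). Against exercise 3 of 5 were called (0.611% of all), Adipoq at 1.97, Retn at 2.26 and Car3 1460256_at at 1.56. Against GW 2 of 5 were called (0.258% of all), Adipoq at 1.98 and Retn at 2.13. The interaction then called 1 of 5, Adipoq at 1.87 (limma adjusted p = 0.0482), where 0.0663% of all probe sets were called. The averaged drug effect called 2 of 5 (0.545% of all), Adipoq and Retn, and the averaged training effect 1 of 5 (0.169% of all), Adipoq.

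With combination arrays 2 and 3 left out instead, a choice made after their values were seen, 1 combination array remained and was assumed to vary like the other groups. Adipoq then had a log2 fold change against vehicle of -0.12, Cebpa -0.10, Retn 0.34 and Car3 0.12 and 0.57, with 0 of 5 called (limma). The higher combination values of Adipoq and Cebpa thus came from 2 of its 3 pools.

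**Figure D3:**
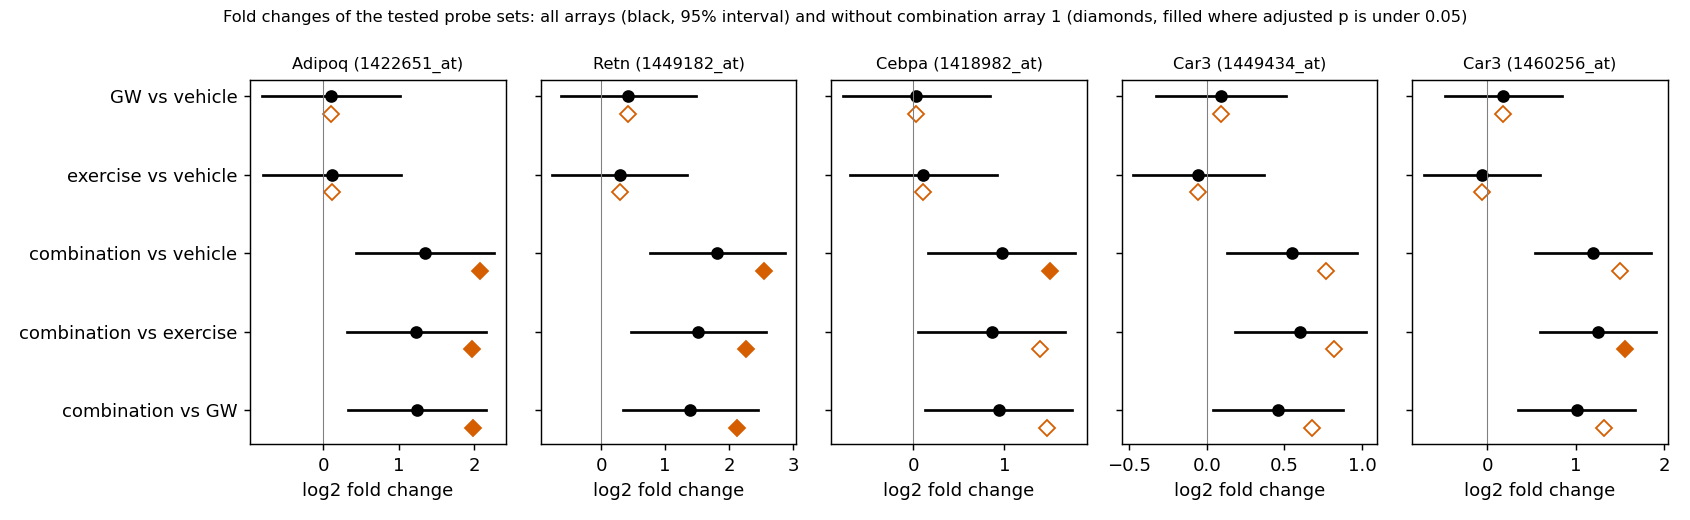
Log2 fold changes of the 5 tested probe sets in the 5 comparisons between groups, from all arrays (black, with the 95% interval) and without combination array 1 (diamonds, filled where the limma adjusted p is under 0.05). With all arrays 0 of 5 probe sets was called in any of the 5, and without combination array 1 the comparisons of the combination group called 3, 3 and 2 of 5.

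The members were then compared with each other across the 12 arrays. Adipoq and Cebpa varied most closely together, with Pearson r = 0.947 (permutation p = 5e-05, adjusted over 15 pairs 0.00075) and Spearman rho = 0.818 (permutation p = 0.00178, adjusted 0.0267). Adipoq and Retn had r = 0.913 (permutation p = 0.00146, adjusted 0.0109), but their rank correlation was rho = 0.434 (permutation p = 0.162, adjusted 0.485). Retn and Cebpa had r = 0.847 and rho = 0.497 (permutation p = 0.00321 and 0.105, adjusted 0.012 and 0.483). The tests were two-sided and shuffled all 12 arrays without regard to group.

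By Pearson r, Car3 followed the other tested genes more loosely than they followed each other. Its r was 0.788 with Cebpa (permutation p = 0.00272, adjusted 0.012), 0.754 with Adipoq (0.00767, adjusted 0.023) and 0.681 with Retn (0.0142, adjusted 0.0354). The rank correlations were 0.629, 0.469 and 0.294 (permutation p = 0.0321, 0.129 and 0.356, adjusted 0.241, 0.483 and 0.762). By rank Car3 was thus not looser throughout, since Adipoq and Retn had 0.434 and Retn and Cebpa 0.497. All 6 pairs of the 4 tested genes passed an adjusted 0.05 by Pearson and 1 of 6 by Spearman, and none of the 9 pairs with Pparg or Lep did by either.

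These relations rested on combination arrays 2 and 3, which were the 2 arrays farthest from the median for each of the 4 genes. Over the other 10 arrays r was 0.713 for Adipoq and Cebpa, 0.336 for Adipoq and Retn, 0.159 for Retn and Cebpa and 0.303 for Car3 and Cebpa. It was -0.02 for Adipoq and Car3 and -0.16 for Retn and Car3. The median over the 6 pairs was 0.82 with all arrays, 0.23 over the 10, and 0.70 when each array was measured from its group's mean. Among the 10 other pools Adipoq and Cebpa was thus the pair that kept the highest correlation.

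**Figure D4:**
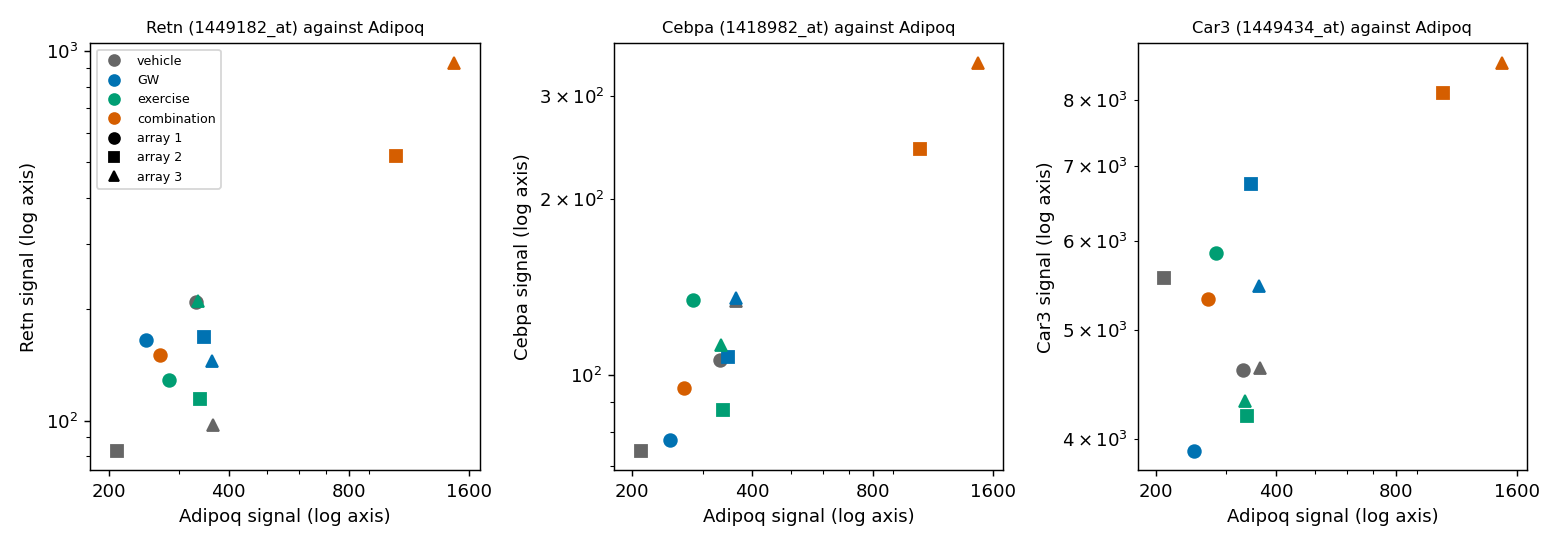
Signals of Retn, Cebpa and Car3 (1449434_at) against Adipoq on log axes, 1 point per array, coloured by group and shaped by array number. Combination arrays 2 and 3 lie apart at the upper right in each panel, and the other 10 arrays form a cloud in which r is 0.336 for Retn, 0.713 for Cebpa and -0.02 for Car3.

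Other genes of the fat cell were read beside the members, from 4 lists of which 39 genes were tested. Of 15 genes of lipid storage and lipolysis, Cidec, Lipe and Fabp4 were each high on combination arrays 2 and 3. Cidec, a lipid droplet protein that lets droplets fuse, had signals of 51.6, 283 and 716 on combination arrays 1 to 3, against 45.4 to 112 on the other 9. Lipe, hormone-sensitive lipase, had 124, 317 and 502 against 83.1 to 166, and Fabp4, the fatty acid carrier of fat cells, 1248, 2737 and 3946 against 1359 to 1889. For comparison, 3.85% of all probe sets tested were over 2-fold higher on combination array 3 than on array 1, and 2.97% on array 2 than on array 1. Lpl is the lipase at the capillary wall that muscle also makes. Its brighter probe set had ratios to array 1 of 1.49 for array 2 and 1.66 for array 3. Its dimmer probe set had 2.42 and 1.63, with a signal of 1473 on combination array 2 against 471 to 954 on the other 9. For the tested probe set of Pnpla2, the adipose triglyceride lipase present in muscle too, the ratios were 1.31 and 1.13.

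In the comparison of combination with vehicle, 30 of these 39 genes had positive values with a median log2 of 0.38, and 2 of 39 were called higher and 0 lower, where 0.147% of all probe sets were called higher. These were Fasn, the fatty acid synthase, at 2.43 ± 0.42 (SE, limma adjusted p = 0.0312) and Scd1, the stearoyl-CoA desaturase, at 1.77 ± 0.28 (0.0181). Lipe had 1.40 (limma adjusted p = 0.169), Mgll, monoglyceride lipase, 0.83 (0.267), Cidec 1.68 (0.424), Fabp4 0.65 (0.472), Cd36 0.63 (0.262), Pnpla2 0.52 (0.244) and Lpl 0.45 (0.384). Among the secreted products Adig, adipogenin, had 2.28 (limma adjusted p = 0.0591), Angptl4, an inhibitor of Lpl and a PPAR target, 2.65 (0.169) and Rbp4, the retinol carrier, 0.88 (0.460). Acly, which makes cytosolic acetyl-CoA, had 1.22 (0.0988) and Thrsp, a lipogenic nuclear protein, 1.29 (0.147).

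On combination array 1, the pool with a fat marker level of -0.30, Scd1 differed from the markers, while Fasn lay within the range of the other 9 arrays. Fasn had signals of 291, 847 and 1543 in combination, beside 201, 91.7 and 131 in vehicle, 225, 271 and 293 in GW and 179.8, 218 and 179 in exercise. Scd1 had 2235, 4115 and 6193 in combination and 844 to 1880 on the other 9 arrays. For Scd1 all 3 combination arrays lay above every other array, while combination array 1 lay just below the highest GW array for Fasn.

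When the fat marker level of each array was entered in the fit as a covariate, the log2 value of Fasn against vehicle was 1.04 (limma adjusted p = 0.247) and that of Scd1 was 0.82 (0.0722). Neither was called then. The level is itself highest in 2 combination arrays, so the covariate takes up part of any difference between the groups. The Fasn call also ended without vehicle array 2 (limma adjusted p = 0.167) or 3 (0.0596), exercise array 3 (0.0590), combination array 2 (0.193) or 3 (0.105), or GW array 2 (0.0580) or 3 (0.0550). That of Scd1 ended without vehicle array 2 (0.109) or combination array 2 (0.112) or 3 (0.0768), and without combination array 1 a total of 10 of the 39 genes were called, where 0.383% of all probe sets were.

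Against exercise, 2 of 39 were called higher (0.0958% of all probe sets), Scd1 at 1.66 (limma adjusted p = 0.0266) and Klf15, a muscle and fat regulator of amino acid and lipid metabolism, at 0.89 (0.0489). In the drug effect averaged over training 2 of 39 were called higher (0.236% of all), Scd1 at 1.05 (0.0375) and Angptl4 at 2.66 (0.0227). With the marker level as a covariate Scd1 had 0.57 in that effect (limma adjusted p = 0.0479) and stayed called. Angptl4 had 2.41 (0.205), and against exercise Scd1 had 0.81 (0.0917) and Klf15 0.92 (0.306). Each of these 4 calls also ended when single arrays were left out, and without a variance trend. Against exercise, Scd1 was no longer called without any 1 exercise array or combination array 2 or 3 (limma adjusted p from 0.0975 to 0.172), and Klf15 without any 1 array but combination array 3 and GW arrays 1 and 2 (0.0539 to 0.268). In the averaged drug effect Scd1 was no longer called without vehicle array 2 or 3, any exercise array, combination array 2 or 3, or GW array 2 or 3 (0.0564 to 0.131), and Angptl4 without vehicle array 2, combination array 2 or 3, or GW array 1 or 3 (0.0554 to 0.0929). In GW against vehicle, exercise against vehicle, combination against GW, the interaction and the averaged training effect 0 of 39 were called (limma), and at an unadjusted p under 0.05 there were 5, 7, 13, 4 and 13 of 39, where 6.42%, 10.4%, 5.75%, 6.79% and 9.09% of all probe sets were. Without combination array 1, 10 of 39 were called against GW (0.258% of all), 5 of 39 in the averaged training effect (0.169% of all) and 1 of 39 in exercise against vehicle (0.147% of all). Klf15 had -0.97 in exercise against vehicle (limma adjusted p = 0.0815), and was called lower there with the marker level as a covariate (-0.97, limma adjusted p = 0.0328).

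The genes most like the fat marker level were sought among 7936 genes outside the members with 1 probe set each, by Pearson r over the 12 arrays. The 10 highest were Hacd2, an enzyme of fatty acid elongation (r = 0.974), Lipe (0.974), Thrsp (0.965), Cyp2e1, a cytochrome P450 (0.963), Slc1a5, a neutral amino acid transporter (0.954), Cavin1, a coat protein of caveolae (0.941), Cidec (0.941), Scd1 (0.940), Fasn (0.936) and Fabp4 (0.935). All were high on combination arrays 2 and 3, and for example Cyp2e1 had 237, 785 and 1592 on combination arrays 1 to 3 and 206 to 401 on the other 9. Over the 10 arrays without combination 2 and 3, r was 0.80 for Cyp2e1, 0.73 for Lipe, 0.72 for Thrsp and 0.68 for Hacd2, and from 0.43 (Slc1a5) to 0.64 (Scd1) for the other 6. The 5 lowest were Gtf2f1, a subunit of a general transcription factor (r = -0.91), Pde12, a phosphodiesterase of the mitochondrion (-0.90), Abt1 (-0.87), Myh14, a non-muscle myosin (-0.85), and Emc2, a subunit of a membrane protein insertase (-0.84). Their r over the 10 arrays was -0.26, 0.58, -0.35, -0.22 and 0.06. The correlations across genes are descriptions, since all rest on the same 12 arrays.

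Over all 7936 genes the median r was 0.00, and 43 genes, or 0.542%, had an r over 0.8. Of the 39 other fat cell genes 13 had one, or 33.3%, with a median of 0.64. By role, 5 of 7 genes of fatty acid synthesis passed 0.8 (median 0.91) and 7 of 15 genes of lipid storage and lipolysis (0.76, with Slc2a4 at -0.32 and Gpd1 at -0.36). Of the secreted products 1 of 9 passed (median 0.69, lowest -0.39), and of the regulators 0 of 8 (median -0.18).

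Markers of other cells of the tissue were read with the same measure. None of 11 preadipocyte and fibroblast markers, 11 macrophage markers, 10 endothelial markers, 5 Schwann cell and nerve markers or 2 blood cell markers passed 0.8, with medians of 0.14, 0.11, 0.20, 0.17 and 0.08. Neither did any of 3 genes listed as brown fat markers (median -0.14), 8 slow fibre genes (-0.06) or 13 fast fibre genes (0.24). The highest r was 0.71 among preadipocyte and fibroblast markers, 0.62 among endothelial and 0.46 among macrophage markers. With each array measured from its group's mean, r ran from -0.35 to 0.86 for preadipocyte and fibroblast markers and from -0.22 to 0.71 for endothelial markers. In that form it ran from -0.29 to 0.71 for macrophage markers and from -0.44 to 0.83 for Schwann cell and nerve markers. The 3 listed for brown fat were Cox8b, Cox7a1 and Ppargc1a, which muscle fibres also express, so their values do not show whether brown fat was present. Ucp1, the uncoupling protein that defines brown fat, lay below the filter with signals of 3.40, 22.002 and 86.6 on combination arrays 1 to 3 and 2.25 to 33.8 on the other 9. It exceeded the background level on combination array 3 and on exercise arrays 1 and 2, where it had 27.4 and 33.8.

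**Figure D5:**
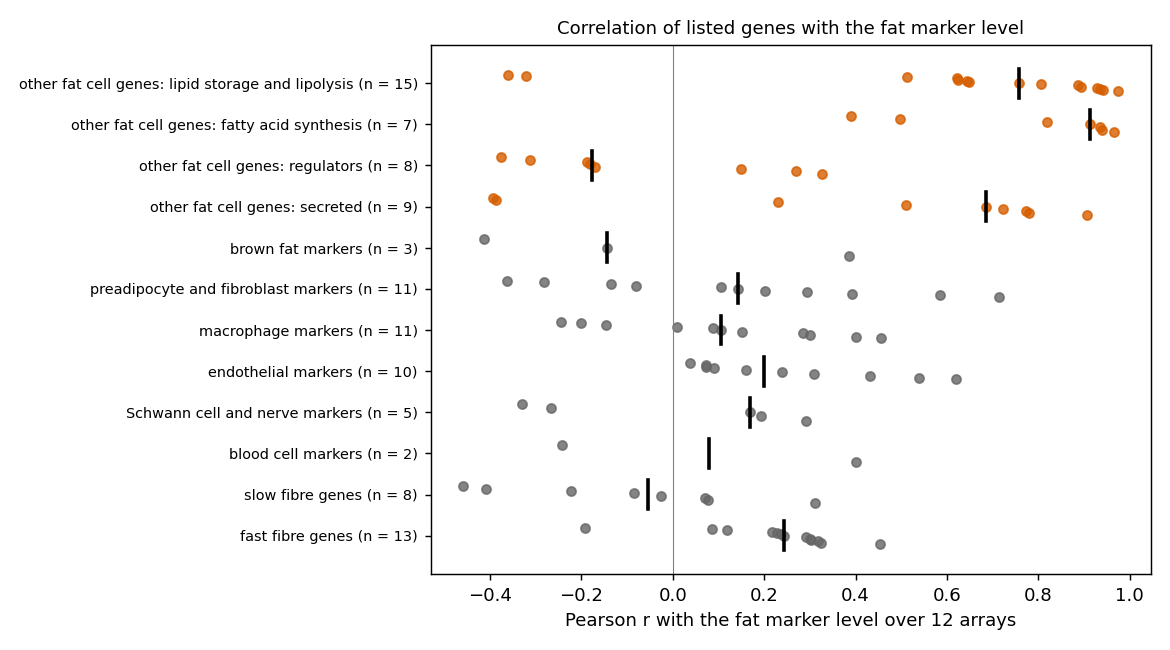
Pearson r of each listed gene with the fat marker level over 12 arrays, 1 point per gene, with the list median as a bar; lists of fat cell genes are orange and lists of other cells grey. Fatty acid synthesis (median 0.91) and lipid storage (0.76) lie to the right, and fat cell regulators (-0.18) and the lists of other cells (medians -0.14 to 0.24) lie near 0.

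The summed signals of these lists were set beside the high pools. The sums are of linear signals, so the brightest genes of a list weigh most. The summed fatty acid synthesis signal was 7793, 10839 and 14013 on combination arrays 1 to 3, against 5193 to 6013 in vehicle, 5142 to 5501 in exercise and 5195 to 7131 in GW. Scd1 alone made up 2235, 4115 and 6193 of it on combination arrays 1 to 3. The sum of lipid storage genes was 14889, 19914 and 22860 in combination and 13958 to 17567 on the other 9 arrays. Macrophage markers summed to 856, 1428 and 1249 on the combination arrays and 907 to 2096 on the other 9, and endothelial markers to 1298, 1665 and 1711 beside 1214 to 1692. The preadipocyte and fibroblast list, which includes collagens, gave 6207, 9306 and 7715 beside 6572 to 8260, so combination array 2 was the highest of all arrays and combination array 1 the lowest. Fat cell regulators summed to 2916, 3104 and 2603 on combination arrays 1 to 3 and 2540 to 3154 on the other 9, and fast fibre genes to 216626, 238094 and 232652. The part of these shifts in the marker differences was not tested.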

How the data were processed

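The authors deposited linear signal intensities for 22690 probe sets on 12 arrays, which they made with MAS5, per the submitters' processing notes. The version and the annotation release are not given in the sources used here, and detection calls were not used. RNA was extracted from frozen quadriceps with Trizol and pooled from 3 mice per array, per the labels' protocols. With the lowest and highest 2% of values left out, array means lay between 199.975 and 199.977, so a marker signal is relative to the other RNA of its pool.

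The log2 of each deposited value was taken without a pseudocount or rescaling. After removal of 64 control probe sets, the 13575 probe sets in the upper 60% of mean log2 signal (mean signal over 28.4) were tested. All 12 arrays entered 1 linear model with a term per group, leaving 8 residual degrees of freedom, in R 4.3.3 with limma 3.58.1, using a variance trend. P-values were two-sided and adjusted by the Benjamini-Hochberg method over all 13575, with a threshold of 0.05. The number of arrays limits the precision. Symbols came from the array annotation, in which 20393 probe sets had 1 symbol, 691 several and 1606 none. Of those with 1, 20364 matched RefSeq by gene identifier and 0 changed.

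For correlations, and for the fat marker level, the probe set of a gene with the highest mean signal was used, with 100000 permutations. Sequences came from RefSeq promoter windows of GRCm38.p6. The members, the gene lists, the tests and the naming rule were chosen with earlier results of these data known. By that rule every member probe set, the genes Fabp4, Cidec, Lpl, Fasn, Scd1, Lipe, Pnpla2 and Ucp1, up to 4 genes a list by significance, and the 10 genes most and 5 least correlated with the fat marker level could be named. Lists of cells other than fat cells are given by counts, medians and ranges. Mgll, Cd36, Adig, Angptl4, Rbp4, Acly, Thrsp and Klf15 are named under the list rule.

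The procedure was tested on simulated data for combination against vehicle on 13575 probe sets, in 5 runs with 200 changed probe sets each. It called 24.7% of those changed 1.5-fold, 50.6% of those changed 2-fold and 78.8% of those changed 3-fold, and 6.37% of calls were false. The simulated noise was independent between probe sets and equally wide in all groups. Adipoq, Retn and Cebpa had a larger spread than most probe sets, and it was widest in the combination group. These rates therefore need not hold for the members. Alternatives were quantile and cyclic loess scaling, a pseudocount of 10.5, no filter or the upper 40%, no variance trend, a robust prior, array weights, array number as a block, fits of only the groups compared, 1 probe set a gene, and each array left out.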

Additional observations from a re-analysis of the deposited data

Results flagged for a closer look

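The measured drug difference of Pparg had opposite signs in the sedentary and the trained groups, although most of its signals are near the background. Every GW array (6.02, 8.60 and 5.20) lay below every vehicle array (36.1, 39.5 and 19.6), and every combination array (56.6, 38.2 and 149) lay above every exercise array (6.90, 37.7 and 7.10). The second separation rested on 38.2 against 37.7. Among the probe sets tested, which do not include Pparg, 11% separated GW from vehicle in either direction. In combination against exercise 7.58% of them separated with combination higher. The trained drug effect less the sedentary one was 4.71 ± 1.02 on the log2 scale (SE) in the limma fit without a filter. Its unadjusted p was 0.000295 and its adjusted p was 0.539, so it did not pass the threshold. The probe set was above 23.5 on 6 of 12 arrays, and all 3 GW values and 2 of 3 exercise values lay below it. The size of the difference thus rests on values that cannot be told from the bacterial controls.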

How the results depend on the processing

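Of 417 member fold changes recomputed under other settings that kept every array, 415 kept their direction and their side of the threshold. The exceptions were Retn in combination against vehicle, called under array weights (1 member probe set called, limma adjusted p = 0.0420), and Cebpa in GW against vehicle, -0.0046 under quantile scaling. Of 480 with 1 array left out, 451 kept both, 12 passed the threshold, all without combination array 1, and 17 turned sign. Counts of members called with 1 array left out ran from 0 to 3 for combination against vehicle and against exercise, 0 to 2 against GW, 0 to 1 for the interaction, 0 to 2 for the averaged drug effect and 0 to 1 for the averaged training effect. With 1 array left out, the log2 ranges for GW against vehicle were -0.14 to 0.27 for Adipoq, -0.19 to 0.25 for Cebpa, and -0.088 to 0.31 and -0.10 to 0.50 for Car3. For exercise against vehicle they were -0.13 to 0.27 for Adipoq, -0.12 to 0.31 for Cebpa, and -0.21 to 0.037 and -0.31 to 0.10 for Car3. Over all settings GW against vehicle reached 0.39 for Adipoq and 0.35 for Cebpa, and exercise against vehicle 0.31 for Adipoq.

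Without combination arrays 2 and 3 together, added after the data were seen, Cebpa and Adipoq had -0.10 and -0.12 against vehicle, -0.21 and -0.24 against exercise, and -0.13 and -0.22 against GW, where Retn had -0.084. The interaction was -0.24 for Cebpa, -0.34 for Adipoq and -0.38 for Retn, the averaged drug effect -0.086 for Cebpa and -0.067 for Adipoq, and the averaged training effect -0.011 for Cebpa, -0.056 for Adipoq and -0.015 for Car3 (1449434_at). The median correlation of the 6 gene pairs, 0.82, was 0.70 from group means, 0.48 by Spearman, and 0.67 to 0.86 with 1 array left out, the lowest without combination array 3. Without the 2 farthest arrays the correlation with the fat marker level was 0.58 for Pde12 and 0.061 for Emc2. Fasn and Scd1 in combination against vehicle were no longer called without a variance trend (limma adjusted p = 0.226 and 0.201), with a robust prior (0.148 and 0.135) or with only the groups compared (0.198 and 0.0973). Without the trend and with a robust prior, Scd1 was also no longer called against exercise (0.222 and 0.153) and in the averaged drug effect (0.239 and 0.216), nor was Angptl4 in that effect (0.227 and 0.148). Klf15 against exercise was no longer called without the trend (0.201) or without a filter (0.0513). Of the 39 other fat genes, the number called ran over all settings from 0 to 10 for combination against vehicle, against GW and in the averaged drug effect, 0 to 9 against exercise, 0 to 5 in the averaged training effect and 0 to 1 in exercise against vehicle, where 7 of 24 settings called 1. The causes were not tested.

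Array numbers are shared between groups in the labels, but 1 of 18 same-number pairs had deviations correlated above 0.1 (median 0.01), so the numbers were not taken to pair the pools, although 8 of 12 arrays correlated best with their own number. With the replicate number as a block the members called stayed at 0 in every comparison, and the call of Klf15 against exercise ended (limma adjusted p = 0.0515). A fit of only the groups compared gives no separate value for the interaction and the averaged effects. The 3 pools per group, and the low signals of Pparg and Lep, above the background level on 6 and 2 of 12 arrays, limit what can be shown.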
